A study of Phascolarctos cinereus with 3 samples.

Results

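On most koala scaffolds of intermediate known extent, peaks of centromere protein lay in interrupted arrays. Enriched stretches of 257 to 13214 bp alternated there with stretches called by neither antibody. The members described here are the peaks of 2 lists, made with an antibody to CENP-A and with CREST serum, on scaffolds whose known extent ran from 20 kb to under 100 kb. The known extent is the end of the last peak of either list and is a lower bound of the scaffold's length. This rule took 328 of the 2412 peaks made with CENP-A and 261 of the 758 made with CREST, on 80 of the 346 scaffolds with a peak. CENP-A peaks lay on 75 of the 80 scaffolds and CREST peaks on 59. At least 2 CENP-A peaks lay on 63 of the 75, and at least 2 CREST peaks on 49 of the 59. The others held a single peak of that list, and 6 scaffolds held only 1 peak of each.

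Chromatin of koala (Phascolarctos cinereus) endometrium, the lining of the uterus, was immunoprecipitated and sequenced (ChIP-seq). One library was made with a rabbit antibody against CENP-A of Macropus eugenii, the tammar wallaby, and one with a human anti-centromere protein IgG, called CREST. Each used 10 µg of antibody and 100000 cells, and 1 ng of DNA entered each library. A library of input chromatin is not analysed here. The number of animals is not stated in the labels, and no treatment is named. With 1 library per antibody there is no replicate error, and the read depth behind the peaks is unknown. Intervals below therefore cover counting error only and treat peaks as independent, although peaks of 1 scaffold share their sequence, and no test was made. Since the members were chosen by the position of their last peak, extents, spacings and coverage are descriptions that the choice partly sets.

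CENP-A is the histone H3 variant that replaces H3 in the nucleosomes of active centromeres and is the base on which the kinetochore is built. CREST sera come from patients with systemic sclerosis and commonly bind CENP-A, CENP-B and CENP-C. Centromeric DNA of most mammals is rich in repeats, which are hard to assemble, so that it often ends up on short scaffolds. Within centromeric chromatin, nucleosomes with CENP-A are known to alternate with nucleosomes that hold ordinary H3.

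The limits of the rule cut through similar scaffolds. Just below 20 kb lay scaf00608 (18576 bp), scaf01410 (19312 bp) and scaf01403 (19802 bp), with 3, 3 and 5 CENP-A and 0, 3 and 4 CREST peaks. Just above it lay scaf01266 (20503 bp), scaf01382 (20534 bp) and scaf00859 (20579 bp), with 6, 5 and 1 CENP-A and 0, 4 and 1 CREST peaks. At the upper limit, scaf00532 (80992 bp), scaf00538 (81567 bp) and scaf00526 (98768 bp) were inside, with 0, 4 and 8 CENP-A and 2, 4 and 6 CREST peaks. The first scaffolds outside were scaf00433 (102911 bp), scaf00420 (123442 bp) and scaf00485 (123597 bp), with 8, 1 and 2 CENP-A and 9, 2 and 3 CREST peaks.

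Both antibodies marked 54 of the 80 scaffolds (67.5%, 56.6 to 76.8%, near the 61.3% of all scaffolds with a peak), and on these the arrays of the 2 lists were close to equal in size. The CENP-A list held 252 peaks there and the CREST list 249. The number of peaks was equal on 23 scaffolds, higher for CENP-A on 16 and higher for CREST on 15, and it differed by at most 1 peak on 43. CENP-A peaks covered more bases on 39 of the 54 scaffolds and CREST peaks on 15. Of the bases in a peak of either list, a median of 77.0% per scaffold lay in peaks of both. The lowest share was 5.55%, on scaf00967, and the highest 98.6%, on scaf01034. On scaf01034 the 3 CENP-A peaks ran from 83 to 1336, from 10482 to 13465 and from 15888 to 24960. The 3 CREST peaks there ran from 108 to 1333, from 10480 to 13478 and from 15773 to 24935, so that each CREST peak lay over 1 CENP-A peak. Scaf00967 stood at the other end, with 8 CREST peaks of 307 to 1326 bp and a single CENP-A peak of 319 bp (9267 to 9585), which lay inside 1 of the 8.

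Over all member scaffolds, 217 of 328 CENP-A peaks (66.2%, Wilson 95% interval 60.9 to 71.1%) shared at least 1 bp with a CREST peak, against 22.4% in the whole CENP-A list. Among CREST peaks, 227 of 261 (87.0%, 82.3 to 90.5%) overlapped a CENP-A peak, against 74.8% in the whole list. Where both antibodies had peaks on the scaffold, the shares were 86.1% (217 of 252, against 49.0% over all such scaffolds) for CENP-A and 91.2% (227 of 249, against 82.5%) for CREST. Together 493909 bp lay in member peaks of both antibodies, or 74.0% of the bases in CENP-A peaks (47.6% in the whole list) and 88.8% of those in CREST peaks, which is near the 85.3% of the whole list. High overlap was not particular to the members. Under 20 kb known extent, the share of overlapping peaks was 75.9% in the CENP-A list and 93.4% in the CREST list. Where both antibodies had peaks there, it was 89.8% and 98.6%. Shared bases came to 78.2% and 92.4% in that class. From 100 kb to 1 Mb, the shares of overlapping peaks were lower, at 43.8% (CENP-A) and 78.0% (CREST).

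**Figure D1:**
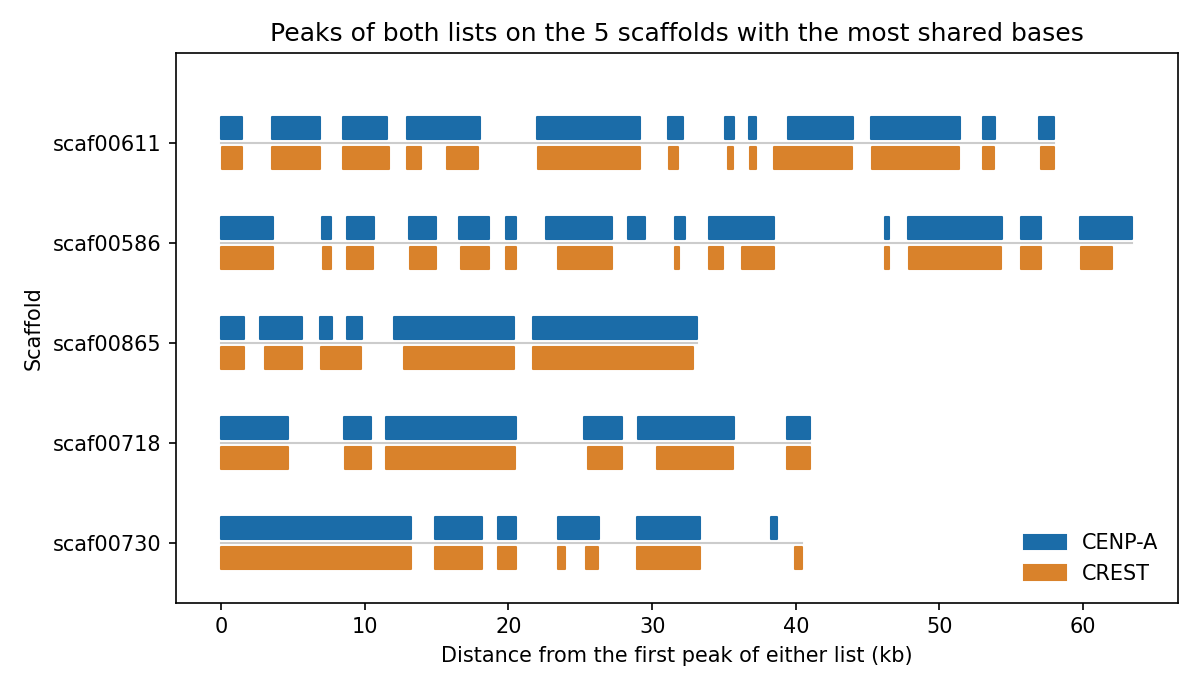
Peaks of CENP-A (blue) and CREST (orange) on the 5 member scaffolds with the most shared bases, drawn to scale by distance in kb from the first peak. Bars are peaks and the grey line is sequence in no peak; most blue and orange bars start and stop together, and scaf00611 holds a CENP-A peak that is split in the CREST list.

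The 5 scaffolds with the most shared bases show the form of these arrays. On scaf00611, of 58284 bp known extent, 12 CENP-A and 13 CREST peaks covered 61.5% of the extent, and the widest measured 7123 bp and 7085 bp. Scaf00586 (65186 bp) held 14 peaks of each list, the most of any member scaffold, and 51.6% of its extent was covered. Scaf00865 (34315 bp) was the most densely covered member, with 6 CENP-A and 5 CREST peaks over 79.7% of its extent. On scaf00718 (43238 bp), 6 peaks of each list covered 61.3%. On scaf00730 (40682 bp), 6 CENP-A and 7 CREST peaks covered 63.6%. Coverage over 50% was found on 16 of the 54 scaffolds with both antibodies, whose median was 34.7% (95% interval of the median 21.8 to 45.5%). Other scaffolds with many peaks were scaf00587, with 9 CENP-A and 11 CREST peaks, scaf00629, with 9 of each, and scaf00820, with 8 of each. Scaf00472, with 10 CENP-A peaks, held no CREST peak.

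Gaps between neighbouring peaks of 1 list were of nearly the same length for both antibodies. The 253 CENP-A gaps had a median of 2763 bp (95% interval 2254 to 3140 bp), with quartiles of 1549 and 5252 bp. The 202 CREST gaps had a median of 2634.5 bp (2175 to 2961 bp), with quartiles of 1478 and 4654 bp. The shortest gaps measured 1016 bp and 1047 bp. No shorter gap is listed, so an interruption of less than about 1 kb cannot be seen in these files. Gaps of at most 2000 bp made up 38.3% of CENP-A gaps (10.5% in the whole list) and 37.6% of CREST gaps (29.4%). Gaps of at most 10000 bp made up 231 of 253 for CENP-A (91.3%, against 22.7% of the gaps in the whole list) and 183 of 202 for CREST (90.6%, against 68.7%). The limit of 100 kb on the extent shortens what gaps are possible here.

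**Figure D2:**
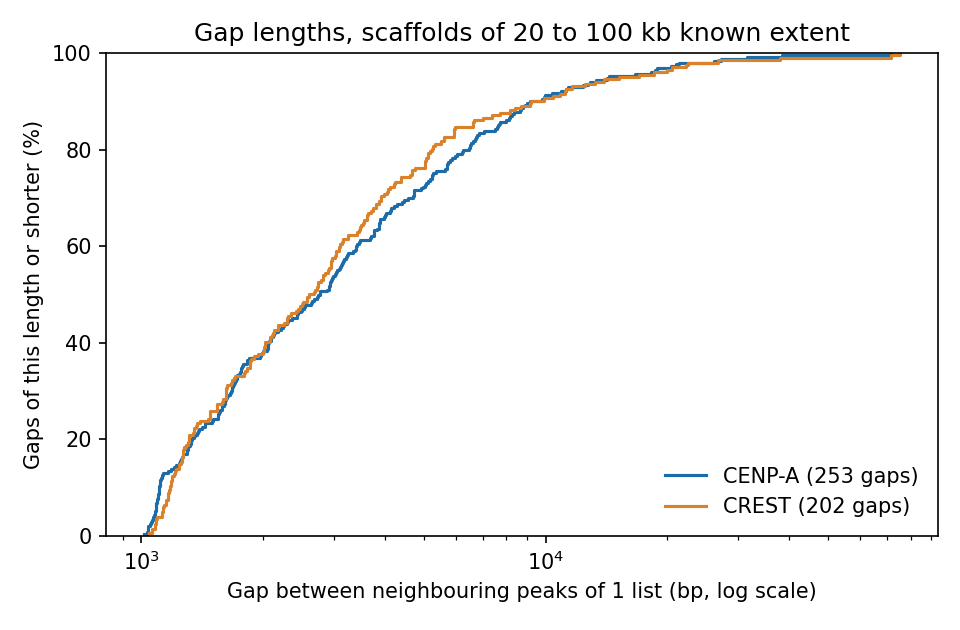
Cumulative share of gaps (vertical axis, %) by gap length in bp on a log scale, for the 253 CENP-A gaps (blue) and the 202 CREST gaps (orange). Both curves leave 0 just above 1 kb and pass 90% near 10 kb, and they lie close to each other along their whole length.

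Measured from centre to centre, neighbouring CENP-A peaks were spaced by a median of 5259.5 bp (4828.5 to 5728.5 bp) and CREST peaks by 4937.75 bp (4581.5 to 5570 bp). The quartiles were 3609 and 7708 bp for CENP-A and 3600 and 7336 bp for CREST. Periodicity was not analysed. Stretches between peaks in which neither list had a peak numbered 274, with a median of 2753 bp (2212 to 3075 bp), and 246 of them (89.8%, against 23.1% over all scaffolds) were at most 10000 bp long. Summed over the 80 scaffolds, peaks of either list took 24.5% of the 2979622 bp of known extent, stretches between peaks 46.1%, and the sequence before the first peak 29.5%. The first CENP-A peak lay within 1000 bp of the scaffold start on 23 of 75 scaffolds (30.7%, against 38.9% in the whole list). For CREST this was so on 17 of 59 (28.8%, against 42.6%). The intervals of the member shares were 21.4 to 41.8% (CENP-A), which holds the share of the whole list, and 18.8 to 41.4% (CREST). Under 20 kb known extent the shares were 77.7% and 69.7%, and from 100 kb to 1 Mb both were 0%. The members thus lay between these classes.

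A small number of gaps were far longer than the rest. The longest CENP-A gap and the longest shared by both lists lay on scaf00538, where 3 short peaks of each list near the start were followed by 71419 bp without a CENP-A peak and 71556 bp without a CREST peak. The CENP-A peaks on either side measured 578 bp (8681 to 9258) and 890 bp (80678 to 81567). Next in the CENP-A list came gaps of 38443 bp on scaf00528, 31561 bp on scaf00627 and 27149 bp on scaf00526. In the CREST list a gap of 75187 bp on scaf00532, which held no CENP-A peak, was the longest of all. In all, 22 of 253 CENP-A gaps (8.70%, against 77.3% in the whole list) and 19 of 202 CREST gaps (9.41%, against 31.3%) exceeded 10000 bp.

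Nearly 50% of the gaps had the same limits in both lists. A gap was counted as shared when a CENP-A and a CREST gap began within 200 bp and ended within 200 bp of each other, on the 54 scaffolds with both antibodies. There were 94 shared gaps, which is 47.5% of the 198 CENP-A gaps (40.6 to 54.4%) and 48.2% of the 195 CREST gaps (41.3 to 55.2%). In the whole lists 19.6% of CENP-A and 36.8% of CREST gaps on scaffolds with both antibodies were shared, 175 in all, of which these are 94. The edges of a gap are the edges of its peaks, so shared gaps and peaks with matching edges are 1 observation, not 2. Shared gaps occurred on 37 of the 43 scaffolds with gaps in both lists, and up to 9 lay on 1 scaffold, on scaf00586 and on scaf00611. On 5 scaffolds every gap of both lists was shared. These were scaf00852 with 5 gaps, scaf00538 with 3, scaf00368 and scaf01034 with 2 and scaf00672 with 1.

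On scaf00611 the run of shared gaps began at 1727 to 3820 in the CENP-A list and 1710 to 3832 in the CREST list. It went on with gaps of 1585, 1358, 3981 and 1995 bp (CENP-A), against 1622, 1265, 4132 and 2024 bp (CREST). Between the second and the third of those CREST gaps lay 1 more CREST gap, of 1798 bp (14217 to 16014), inside a CENP-A peak of 5124 bp (13199 to 18322). On scaf00852 the 5 gaps measured 4216, 1410, 2061, 1562 and 1120 bp in the CENP-A list and 4247, 1367, 2006, 1535 and 1239 bp in the CREST list.

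Shared gaps were slightly longer in the CREST list. The CREST gap was the longer one in 74 of 94 and the CENP-A gap in 20. The CREST minus the CENP-A length had a median of 31 bp, and the largest difference in either direction was 376 bp. The tolerance on both edges that defines a shared gap limits this difference at every gap length. The largest difference therefore does not show how well long gaps match. The lengths ran from 1040 to 71419 bp in the CENP-A list. Ranked by the mean of both lengths, the 5 longest lay on scaf00538, on scaf00368 (20477 bp in the CENP-A and 20502 bp in the CREST list), on scaf00636 (18669 and 18572 bp), on scaf00528 (12381 and 12491 bp) and on scaf00526 (11248 and 11252 bp). By the same mean, the 5 shortest lay on scaf01348 (1064 and 1060 bp), scaf00730 (1057 and 1091 bp), scaf01010 (1040 and 1125 bp), scaf00718 (1085 and 1087 bp) and scaf00611 (1079 and 1138 bp). By length of the CENP-A gap, 43 of 82 gaps of at most 2000 bp were shared (52.4%), 35 of 69 from 2000 to 5000 bp (50.7%), 10 of 33 from 5000 to 10000 bp (30.3%) and 6 of 14 longer ones (42.9%). The intervals of these shares overlap (41.8 to 62.9% in the first class and 17.4 to 47.3% in the third).

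**Figure D3:**
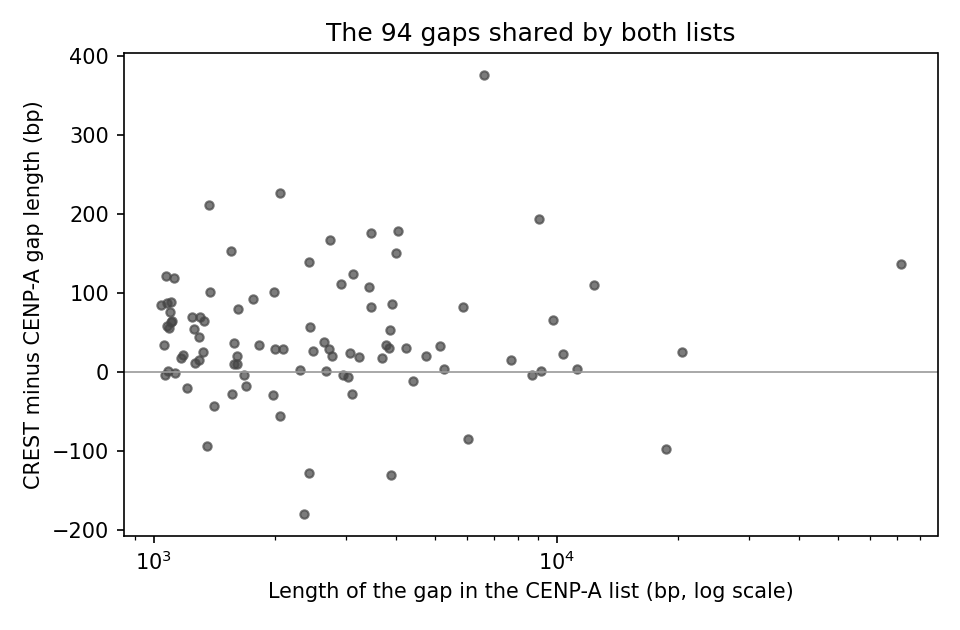
Each of the 94 shared gaps as a point, with its length in the CENP-A list in bp on a log scale (horizontal) and the CREST minus the CENP-A length in bp (vertical). The grey line marks equal length. Of the points, 74 lie above it and 20 below, and the largest difference is 376 bp. The tolerance on both edges that defines a shared gap limits this difference at every length, also for the gap of 71419 bp.

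The gaps that were not shared were sorted by what the other list held in them. A single peak of the other list spanned 18 of 195 CREST gaps (9.23%, 5.92 to 14.1%) and 8 of 198 CENP-A gaps (4.04%, 2.06 to 7.77%). A whole peak of the other list lay inside 18 CREST and 8 CENP-A gaps. Peak edges reached into 40 CREST and 42 CENP-A gaps. No base of the other list fell in the remaining ones. Of these, 15 CREST and 37 CENP-A gaps lay between peaks of the other list that were farther from the edges. Only for this class did the intervals of the lists not overlap (4.72 to 12.3% for CREST and 13.9 to 24.7% for CENP-A). Another 10 CREST and 9 CENP-A gaps had peaks of the other list on 1 side only. The classes of the 2 lists are linked, since 1 added peak alters the classes of gaps in both. The gaps spanned by 1 peak were short, with medians of 1229 bp (CREST) and 1094.5 bp (CENP-A), not far above the shortest gap in the lists.

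**Figure D4:**
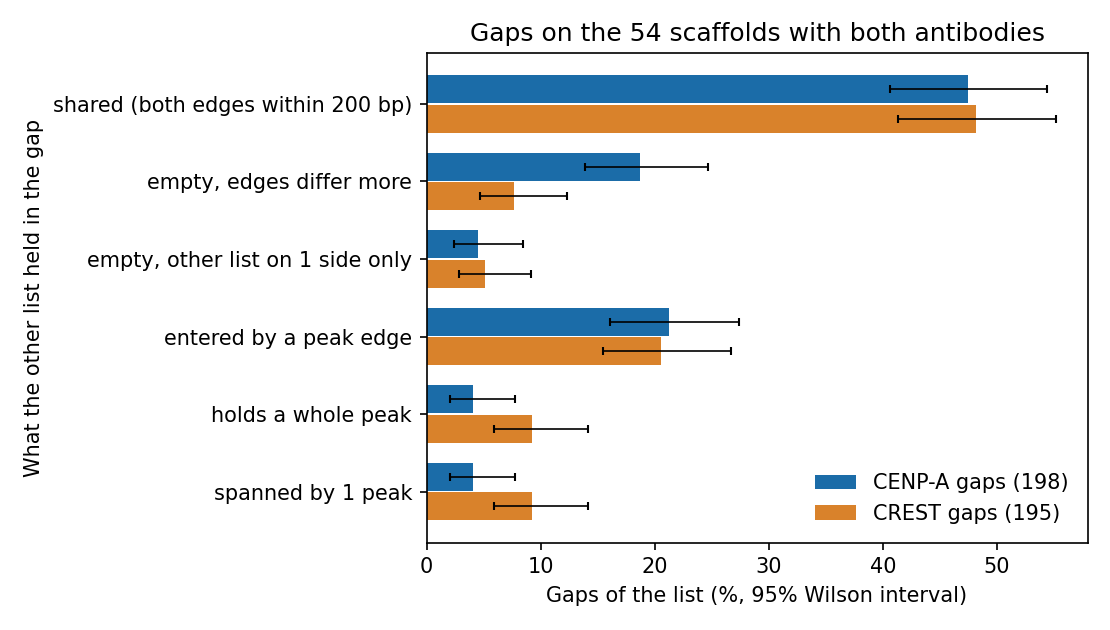
Share of the 198 CENP-A gaps (blue) and the 195 CREST gaps (orange) in %, by what the other list held in the gap, with 95% Wilson intervals as error bars. Shared gaps make up 47.5% and 48.2%, and in the empty class with differing edges the CENP-A bar (37 gaps) is longer than the CREST bar (15 gaps).

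The gaps that held the most bases of the other list were on a handful of scaffolds. Of the first 5 in the CENP-A list, 3 lay on scaf00587. There 3405 bp of CREST peaks fell in a CENP-A gap of 8105 bp (38875 to 46979), 1443 bp in one of 5733 bp (51401 to 57133), and a CREST peak spanned the whole of one of 1390 bp (61238 to 62627). The others were on scaf00627, with 2499 bp of CREST peaks in the gap of 31561 bp, and on scaf00629, with 1642 bp in a gap of 7575 bp (6514 to 14088). Scaf00587 was a scaffold on which CREST peaks covered more, 19467 bp against 11555 bp for CENP-A. In the CREST list, a CENP-A peak spanned all 2599 bp of the gap on scaf00612 (42267 to 44865). A CREST gap of 5044 bp on scaf00945 (18992 to 24035) held 2738 bp of CENP-A peaks. Gaps of 22492 bp on scaf00528, 6596 bp on scaf00719 and 11172 bp on scaf01004 held 2488, 2416 and 2325 bp.

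Seen from the peaks, 17 CENP-A peaks lay over 2 or more CREST peaks, and 8 CREST peaks lay over 2 or more CENP-A peaks. The widest CENP-A peak of this kind, on scaf00804 (15892 to 28565, 12674 bp), matched CREST peaks that ran from 15885 to 28678 with a gap of 1241 bp. A CENP-A peak of 12509 bp on scaf00526 (69084 to 81592) likewise faced 2 CREST peaks, 1620 bp apart. The widest CREST peak that faced more than 1 CENP-A peak was on scaf00737 (25181 to 35371, 10191 bp), where the CENP-A gap measured 1114 bp.

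In the 187 pairs in which a CENP-A peak met a single CREST peak and no other CENP-A peak met it, the edges lay a median of 32 bp apart (25 to 42 bp). In 128 pairs (68.4%) both edges lay within 200 bp. The CENP-A peak was wider in 126 pairs and the CREST peak in 61, with a median ratio of 1.02. By width of the CENP-A peak, both edges lay within 200 bp in 21 of 24 pairs under 500 bp. The counts were 48 of 82 from 500 to 2000 bp and 59 of 81 at 2000 bp or more. A tolerance of 200 bp is large beside a peak under 500 bp, so overlapping narrow peaks meet it easily. The first count therefore does not show that the edges of narrow peaks match. The most unequal pairs lay on scaf00587, with a CENP-A peak of 460 bp inside a CREST peak of 2489 bp, and on scaf00737, with 1243 bp for CENP-A and 267 bp for CREST. The pairs on scaf00629 (377 bp for CENP-A, 1454 bp for CREST) and scaf00714 (1139 and 258 bp) came next at each end.

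Wide peaks held most of the bases. Peaks of at least 2000 bp numbered 109 of 328 for CENP-A (33.2%, 28.4 to 38.5%, against 11.1% in the whole list) and 103 of 261 for CREST (39.5%, 33.7 to 45.5%, against 30.9%). They held 69.9% of the CENP-A bases on these scaffolds, against 46.4% in the whole list, and 74.9% of the CREST bases, near the 68.9% of the whole list. High shares of wide peaks were not particular to the members. Under 20 kb known extent, 42.5% of CENP-A and 45.8% of CREST peaks were wide, with 78.5% and 77.7% of the bases. From 100 kb to 1 Mb, 19.0% and 18.3% of the peaks were wide. Of the wide CENP-A peaks 102 of 109 overlapped a CREST peak (93.6%, against 91.4% in the whole list), and 101 of 103 wide CREST peaks overlapped a CENP-A peak (98.1%, against 98.3%), so the wide members were near the background in this respect. A wide peak has more room for an overlap than a narrow one. At the narrow end, 25 of 57 CENP-A peaks under 500 bp (43.9%, against 6.34% in the whole list) and 34 of 47 CREST peaks under 500 bp (72.3%, against 49.2%) overlapped the other list. On scaffolds of under 20 kb known extent these shares were 44.7% and 87.5%, so they were not particular to the members. From 100 kb to 1 Mb they were 20.8% and 70.8%.

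The widest member peaks were found at the same places in both lists. The widest of each was on scaf00730, with 13178 bp for CENP-A and 13214 bp for CREST. Scaf00865 (11453 and 11174 bp) and scaf00629 (10777 and 10669 bp) followed among those present in both sets of 5. The CENP-A peaks on scaf00804 and scaf00526, which the CREST list splits, and the CREST peak on scaf00737, which the CENP-A list splits, completed these sets with a CREST peak of 9163 bp on scaf01034.

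Some wide peaks stood next to each other. A block was taken as a run of at least 2 neighbouring peaks of 1 list that were each at least 2000 bp wide. The CENP-A members held 25 blocks on 21 scaffolds, with 63 peaks and 41.8% of the member bases of that list. The whole CENP-A list of 2412 peaks held 47 blocks. The CREST members held 24 blocks on 20 scaffolds, with 59 peaks and 46.1% of the member bases of that list. The whole CREST list of 758 peaks held 45 blocks. Most blocks were pairs, 18 of 25 for CENP-A and 19 of 24 for CREST. Of the CENP-A blocks 15 overlapped a CREST block, and of the CREST blocks 16 overlapped a CENP-A block. Block lengths had medians of 14143 bp (CENP-A) and 12728 bp (CREST).

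The longest block of both lists lay on scaf00852 and held 6 peaks in each. The CENP-A block ran from 389 to 33947, with peaks of 3234, 4933, 3443, 5708, 3440 and 2432 bp. The CREST block ran from 368 to 34844, with peaks of 3246, 5006, 3400, 5746, 3485 and 3200 bp. Thus the first 5 peaks differed by at most 73 bp in width between the lists, and the last by 768 bp. On scaf01270 a block of 4 CENP-A peaks (70 to 22856) faced 4 CREST peaks (89 to 22849). Blocks of 4 peaks on scaf00629 (18796 to 43307 for CENP-A, 18742 to 43281 for CREST) and of 3 peaks on scaf00718 (13732 to 37916 and 13729 to 37897) also ended within 200 bp of each other at both sides. The block on scaf00611 (3821 to 29426, 4 CENP-A peaks) was among the longest 5 for CENP-A, and the one on scaf00865 (4257 to 34050, 4 CREST peaks) among those for CREST.

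Within the arrays, a wide CENP-A peak was followed by another wide peak in 38 of 84 cases (45.2%), and a narrower one by a wide peak in 52 of 169 (30.8%). In the CREST list these shares were 35 of 82 (42.7%) and 49 of 120 (40.8%). Both CREST shares lay near the 39.5% of CREST members that were wide, so they show little grouping of wide CREST peaks. Among all CENP-A members 33.2% were wide, but this share was 9.21% on scaffolds with CENP-A only and 40.5% on those with both antibodies. The CENP-A shares above pool these 2 kinds of scaffold, so their difference does not show grouping of wide peaks within a scaffold. Gaps between 2 wide peaks had a median of 1681 bp for CENP-A and 1672 bp for CREST. The medians were 2827 and 2706.5 bp with 1 wide neighbour, and 3102 and 2961 bp with none.

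The remaining 26 scaffolds carried 1 antibody only, and their peaks were narrower than the pooled peaks of scaffolds with both antibodies. The median number of CENP-A peaks was 3 (2 to 5) on those with CENP-A only and 4 (3 to 5) with both antibodies. For CREST peaks it was 2 (1 to 4) on those with CREST only and 4.5 (3 to 5) with both. These intervals overlap. CENP-A peaks without CREST were found on 21 of 80 scaffolds (26.2%, 17.9 to 36.8%, against 31.5% of all scaffolds), and CREST peaks without CENP-A on 5 of 80 (6.25%, 2.70 to 13.8%, against 7.23%). Both shares are near those of the whole series. For the 76 CENP-A peaks on such scaffolds the median width was 910.5 bp (665 to 1130 bp), against 1454 bp (1246 to 1844 bp) for the 252 on scaffolds with both antibodies. Peaks of at least 2000 bp made up 7 of these 76 (9.21%, 4.53 to 17.8%) and 102 of those 252 (40.5%, 34.6 to 46.6%). The 12 CREST peaks without CENP-A on the scaffold had a median width of 573 bp, and none reached 2000 bp. The count of 0 of 12 allows a share of up to 25% (3 counts of 12). Width also went with overlap. Over all members, the 217 CENP-A peaks that met a CREST peak had a median of 1853 bp, and the 111 others 850 bp. For CREST it was 1747 bp in the 227 with an overlap and 644.5 bp in the 34 without. No overlap is possible on a scaffold with 1 antibody, so the widths there do not separate the kind of scaffold from missing overlap. Peaks covered a median of 8.68% (3.43 to 17.0%) of the known extent on CENP-A scaffolds without CREST, while the extents themselves were alike, with medians of 30526 bp there and 31280.5 bp with both antibodies.

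**Figure D5:**
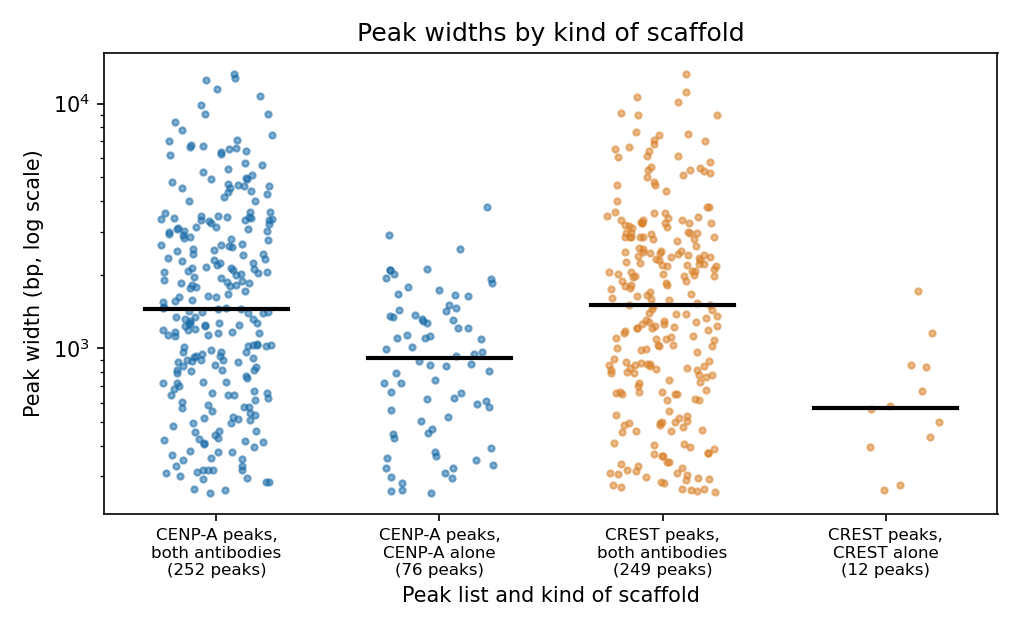
Width of each member peak in bp on a log scale, by list and by whether the scaffold carried both antibodies or that antibody alone; points are peaks, spread sideways for legibility, and black bars are medians. The medians are 1454 and 910.5 bp for CENP-A and 1510 and 573 bp for CREST, and the peaks above 5 kb all lie on scaffolds with both. Only scaffolds with both can hold peaks that overlap the other list, and the figure does not set these apart.

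Among the scaffolds with CENP-A only, scaf00472 stood out by number. Its 10 CENP-A peaks of 446 to 2112 bp covered 11452 bp, which was 27.1% of its extent of 42253 bp, and no CREST peak was listed there. Scaf00659 held 6 CENP-A peaks with 8457 bp, among them the widest CENP-A peak on a scaffold without CREST (16048 to 19818, 3771 bp). Scaf01266 (6 peaks, 7051 bp), scaf01037 (5 peaks, 6676 bp) and scaf00794 (5 peaks, 6369 bp) came next. The 5 scaffolds with CREST only held less, with 2834 bp in 4 peaks on scaf00575, 1978 bp in 2 peaks on scaf00499, 1964 bp in 3 on scaf00839, 976 bp in 2 on scaf00532 and 502 bp in 1 on scaf00592. Whether a scaffold without a peak of 1 antibody lacked enrichment or depth cannot be told from lists of peaks.

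Set beside scaffolds of other known extent, the members lay between their neighbours in gap length. The median CENP-A gap was 1797.5 bp under 20 kb (1611 to 2037 bp), 2763 bp among the members and 13986 bp (9069 to 19451 bp) from 100 kb to 1 Mb. For CREST the medians were 2054, 2634.5 and 7941 bp. A longer known extent has room for longer gaps, so this order follows in part from the classes. Shared gaps made up 41.7% of CENP-A gaps (33.1 to 50.9%) under 20 kb, 47.5% among the members and 22.8% (14.9 to 33.2%) from 100 kb to 1 Mb. In CREST gaps the shares were 45.7%, 48.2% and 27.7%. The intervals of the members and of the smaller scaffolds overlap, and no test of these differences was made, since the classes were cut from the peak positions themselves.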

How the data were processed

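Each antibody has 1 deposited list, whose 3 columns (unit: other, positions in bp) give the scaffold, start and end of a peak, without score or fold. Per the submitters' processing notes, the authors used Trimmomatic 0.36, Bowtie2 and MACS2 2.0.10.20131216, and the scaffold names carry the build phaCin_unsw_v4.1. For the parameters, the threshold, the background and reads that fit several places, the sources used here give no method; the last of these can move the number and edges of peaks in repeats. Positions are printed counting from 1. Gaps, overlaps (at least 1 bp), shared gaps (both edges within 200 bp) and blocks were computed with Python 3.11.15, numpy 2.4.6, pandas 2.3.3 and scipy 1.17.1, and checked on simulated lists. Shares carry 95% Wilson intervals and medians 95% intervals from ranks. The regions named are the top 5 by shared bases, number of peaks, width, shared or filled gap, block and single antibody; others were chosen after their values were seen. Recurring widths, also planned, stand in the closing section. The members, definitions and alternatives were chosen with earlier results of these data known. No genome sequence of this build was used, so sequence in peaks and gaps is not described.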

Additional observations from a re-analysis of the deposited data

How the results depend on the processing

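There are no replicates to leave out, and a missing peak shows little while the read depth is unknown. No paired analysis was possible because each group has 1 sample. Of 75 values under alternatives, 49 stayed inside the interval of the reported value or, for counts, within 1.5 times it. This held for both overlap shares and the edge distance under each alternative run. Leaving out the 5 scaffolds with the most peaks moved 1 of 18 results, the covered share, to 22.1%. The interval used for the covered share (24.43 to 24.52%) counts each base as independent. It is so narrow that a small change counts as moved, so the label says little for the covered share. With peaks of at least 500 bp only, that share was 23.7%, and wide peaks made up 40.2% (CENP-A) and 48.1% (CREST). With extents of 30 to 100 kb it was 23.3%, with 14 CENP-A blocks, 11 scaffolds with CENP-A only and 6 repeated widths. Joining peaks at most 2000 bp apart gave median gaps of 4440 bp (CENP-A), 3836 bp (CREST) and 4090 bp (neither list) and spacings of 8466.5 and 7971.25 bp, so gap lengths depend on how finely peaks are split. Edge tolerances of 100 and 500 bp gave shared gaps of 37.4% and 55.1% of CENP-A gaps and 37.9% and 55.9% of CREST gaps. With wide peaks set at 1000 bp, 60.1% of CENP-A and 62.1% of CREST peaks were wide, in 51 and 40 blocks, and at 3000 bp 20.7% and 20.7%, in 13 and 10 blocks. Repeated widths numbered 78 in place of 16 with a tolerance of 2 bp. Except where the setting itself defines the count or joins peaks, the cause was not tested.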

Other observations

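Some member peaks of at least 1000 bp had exactly the width of another peak of the same list on a different member scaffold. This was so for 16 of 359 such peaks, in 5 pairs for CENP-A and 3 for CREST. The widest pair was 3026 bp in the CENP-A list, on scaf00996 (12677 to 15702) and scaf01270 (70 to 3095). Next came CREST peaks of 2863 bp on scaf00629 (18742 to 21604) and scaf00975 (26585 to 29447), and CENP-A peaks of 1344 bp on scaf00659 (12960 to 14303) and scaf01004 (5876 to 7219). CENP-A peaks of 1265 bp on scaf00730 and scaf00945 and CREST peaks of 1253 bp on scaf00730 and scaf01004 followed. The remaining 3 pairs were CENP-A peaks of 1185 bp on scaf00737 and scaf00996 and of 1139 bp on scaf00526 and scaf00714, and CREST peaks of 1019 bp on scaf01018 and scaf01132. No width occurred more than 2 times. The sequences behind these peaks were not compared. The same count was not made over the whole lists, and how many exact matches unrelated widths would give was not worked out. A tolerance of 2 bp already gave 78 peaks, so the pairs are not read as repeated units.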
